A study of Mus musculus with 26 samples.

Results

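Genes for 8 secreted matrix proteins and galectins were described: Fn1, Tgfbi, Vcan, Thbs1, Sparc, Spp1, Lgals1 and Lgals3. They were chosen by name, with earlier results of these data known. A gene was taken from the array where its probe set carried that symbol and no other. This held for 7 of the 8, out of 19937 genes on the array, and each of the 7 had 1 such probe set. Spp1, which encodes osteopontin, had no probe set with its symbol in the annotation used and was not analysed here. The study hybridised RNA of C57BL/6 mouse blood progenitors to 26 Affymetrix arrays, and its title names the MLL-AF9 fusion, which causes acute myeloid leukaemia. In mice that carry it under doxycycline (dox) control, the drug is known to turn on its expression. Neither the promoter that drives it nor the event from which the labelled hours count, adding or withdrawing the drug, is stated in the sources used.

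Sorted cells from the bone marrow of wild-type mice were LT-HSC (long-term hematopoietic stem cells, n = 4) and GMP (granulocyte macrophage progenitors, n = 4). The other 18 arrays held immortalized lines grown in liquid medium. Of LT-HSC-derived lines, those with dox were sampled at 48 h (n = 2, lines B6-2 and B6-3) and at 72 h (n = 3, with B6-1 added), and without dox at 48 h and at 72 h (n = 3 each, the same 3 lines). GMP-derived lines were sampled at 48 h with dox (n = 4, B6-2, B6-3, F6-6 and B6-1) and without (n = 3, B6-2, B6-3 and F6-6). Each origin was thus represented by 3 or 4 lines, and whether a line name shared by both origins marks a shared donor mouse is not given. Animal ages are not given either. The labels call all replicates biological, and whether each sorted replicate came from a different mouse is not given. The labels and the table name no scan date or batch.

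Values are log2 probe set signals, and a difference of 1 is a doubling. A gene was called where its Benjamini-Hochberg adjusted p over all 19937 genes was under 0.05 in a limma fit with a mean for each of the 8 groups, 2-sided. Differences are given with the standard error of that fit. The median of all values was 5.86 and the array medians lay between 5.81 and 5.91. Within groups, arrays correlated pairwise over all probe sets at r = 0.979 to 0.991. The 10 HSC markers were all lower and the 10 GMP markers all higher in sorted GMP than in sorted LT-HSC. Meis1 and Hoxa9, transcription factor genes known to be activated by MLL fusions, were higher with dox in all 3 dox comparisons, Meis1 by 1.27 ± 0.20 and 1.61 ± 0.18 in LT-HSC-derived lines at 48 h and 72 h and by 2.46 ± 0.17 in GMP-derived lines. Signals of the mouse Kmt2a and Mllt3 genes, the partners of the fusion, differed by at most 0.29 in those comparisons, with Kmt2a called at 72 h (0.27 ± 0.08, adjusted p = 0.0493). Whether these probe sets also read the fusion transcript was not analysed.

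Extracellular matrix is the protein scaffold around cells, and blood cells both bind it and add to it. Fibronectin (Fn1) and the TGF-beta-induced protein (Tgfbi) are adhesive matrix glycoproteins that integrins bind, and versican (Vcan) is a large proteoglycan that binds hyaluronan and is made by monocytes among other cells. Thrombospondin 1 (Thbs1) and SPARC are matricellular proteins, which modulate how cells contact the matrix rather than building it, and both are stored in platelets. Galectins are lectins that bind beta-galactoside sugars on glycoproteins: galectin 1 (Lgals1) works as a dimer, and galectin 3 (Lgals3), abundant in macrophages, forms larger lattices.

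The promoter windows of 3 genes that were called lower with dox in all 3 comparisons (Tgfbi, Vcan and Lgals3), and of Sparc, which was not called with it, are shown for comparison. Of the 8 genes, 5 matched the promoter table, the other being Spp1, and the windows of Fn1, Thbs1 and Lgals1 were not analysed here, so 2 of the 5 genes lower with dox are missing from this comparison. They span 250 bases before to 50 after the annotated start of transcription, 300 bases each, and come from RefSeq on GRCm38.p6. They lie at chr13:56609336-56609635 on the plus strand for Tgfbi, chr13:89742463-89742762 on the minus strand for Vcan, chr14:47373610-47373909 on the plus strand for Lgals3 and chr11:55420031-55420330 on the minus strand for Sparc. Each is written 5′ to 3′ along the gene, and capitals mark GGGCGG, the GC box, on either strand.
Tgfbi: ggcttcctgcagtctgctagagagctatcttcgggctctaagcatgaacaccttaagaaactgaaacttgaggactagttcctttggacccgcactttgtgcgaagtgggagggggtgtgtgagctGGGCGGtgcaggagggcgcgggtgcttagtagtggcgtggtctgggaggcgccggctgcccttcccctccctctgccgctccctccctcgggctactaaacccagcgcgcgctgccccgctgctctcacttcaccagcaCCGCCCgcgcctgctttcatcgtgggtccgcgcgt
Vcan: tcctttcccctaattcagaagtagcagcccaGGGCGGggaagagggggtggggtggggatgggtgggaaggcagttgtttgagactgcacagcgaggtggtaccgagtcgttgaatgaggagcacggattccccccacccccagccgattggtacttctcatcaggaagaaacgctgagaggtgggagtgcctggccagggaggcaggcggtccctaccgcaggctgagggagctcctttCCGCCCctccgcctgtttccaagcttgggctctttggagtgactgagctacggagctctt
Lgals3: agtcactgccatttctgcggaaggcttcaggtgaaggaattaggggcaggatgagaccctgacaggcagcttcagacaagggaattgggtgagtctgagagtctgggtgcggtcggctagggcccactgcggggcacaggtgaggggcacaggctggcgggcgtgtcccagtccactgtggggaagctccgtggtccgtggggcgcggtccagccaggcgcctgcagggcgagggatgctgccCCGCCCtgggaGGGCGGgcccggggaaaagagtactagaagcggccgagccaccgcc
Sparc: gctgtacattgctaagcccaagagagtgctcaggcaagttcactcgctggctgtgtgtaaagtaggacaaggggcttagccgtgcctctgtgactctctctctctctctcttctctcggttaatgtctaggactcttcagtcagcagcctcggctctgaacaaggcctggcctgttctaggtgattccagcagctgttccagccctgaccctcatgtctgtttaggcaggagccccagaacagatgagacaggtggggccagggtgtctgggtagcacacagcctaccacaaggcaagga

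The Tgfbi, Vcan and Lgals3 windows each held 2 GC boxes and the Sparc window none. In the Tgfbi window the GC boxes began at bases 127 and 266, in the Vcan window at bases 32 and 241, and in the Lgals3 window at bases 244 and 255, counted from 1 at the 5′ end. Of all 32817 promoter windows of this length, 35.6% held a GC box. The other motifs were searched on both strands, none of which overlaps the GC box in its letters. CCAAT, found in 37.4% of all windows, was present for Vcan at base 148 and for Lgals3 at base 84, and the MEIS motif TGACAG, found in 19.2%, was present for Lgals3 at base 60. The AP-1 motif TGANTCA (7.81% of all windows), the CRE core TGACGT (7.51%) and TATAAA (13.6%) were in none of these 4 windows. The GC content was 63.3% for Tgfbi, 61% for Vcan, 67% for Lgals3 and 55.3% for Sparc, against a median of 52.7% over all windows. These matches describe letters in the windows and were not tested.

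Of the 7 genes, 5 were lower with dox than without it in the same line in every available pair of arrays. The other 2, Lgals1 and Sparc, were not. How many of all genes were lower in every pair was not counted. Lines B6-2 and B6-3 of LT-HSC origin gave a pair at both 48 h and 72 h, so the pairs are not all independent. A fall was called for 3 in LT-HSC-derived lines at 48 h (Tgfbi, Lgals3 and Vcan), 4 at 72 h (these and Fn1) and 5 in GMP-derived lines at 48 h (these 4 and Thbs1), and none rose. Over all genes, 0.441%, 7.15% and 10.9% were called in these comparisons in either direction, and 0.286%, 3.72% and 5.18% were lower with dox. The median difference of the 7 genes was -1.01, -1.16 and -1.24, against 0.00, -0.03 and 0.01 over all genes tested. Because the genes were chosen with earlier results of these data known, their counts and medians beside all genes are a description and not a test. In bulk RNA, fewer cells that express a gene and less RNA of it per cell cannot be told apart.

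**Figure D1:**
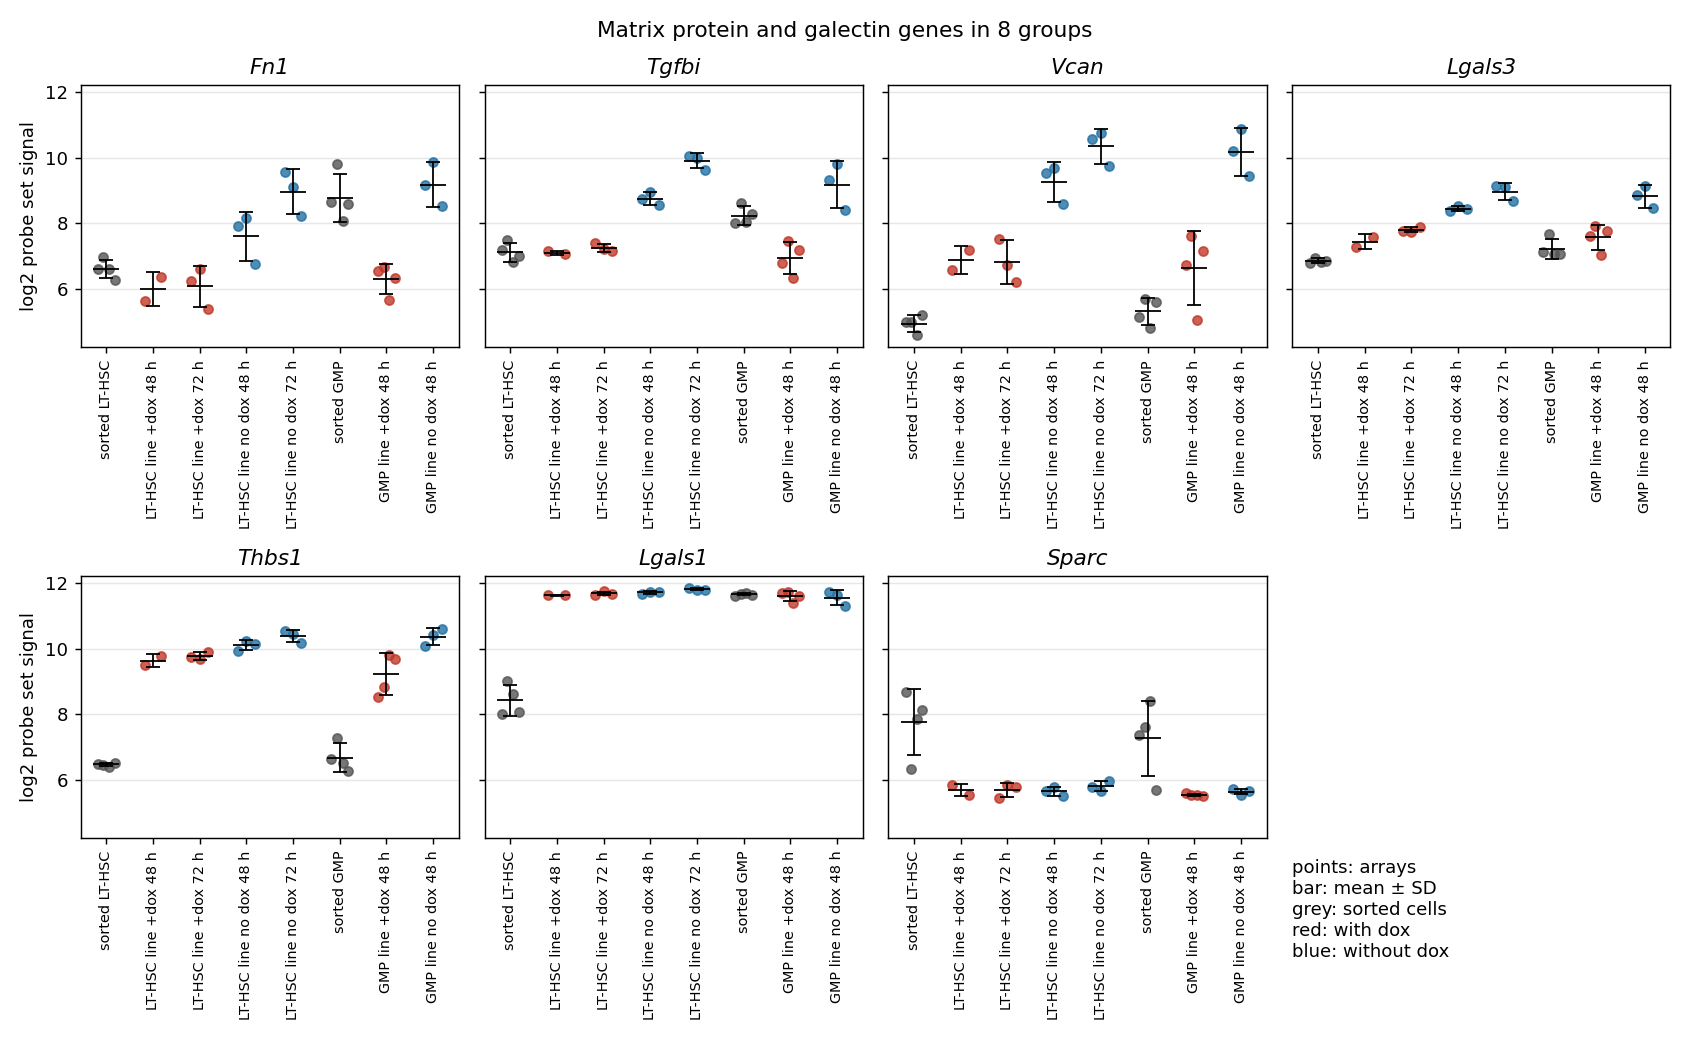
Log2 probe set signal (vertical axes) of each gene on the 26 arrays by group (horizontal axes), with points for arrays and bars for the mean ± SD. Fn1, Tgfbi, Vcan and Lgals3 lie higher in lines without dox (blue) than with it (red), Thbs1 separates all lines from sorted cells (grey), Lgals1 is low in sorted LT-HSC alone, and Sparc lies between 5.45 and 5.96 in all lines.

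Fibronectin was high in sorted GMP and, except in line B6-1 at 48 h, in lines without dox, and low in sorted LT-HSC and in lines with dox. Its signal (probe set 10355403) was 6.60, 6.97, 6.60 and 6.29 in sorted LT-HSC and 8.67, 9.80, 8.06 and 8.58 in sorted GMP. No array of either kind of sorted cell overlapped the other. With dox it was 5.64 and 6.37 in LT-HSC-derived lines at 48 h, 6.23, 6.61 and 5.39 at 72 h, and 6.53, 6.67, 5.66 and 6.34 in GMP-derived lines, so every culture with dox lay below every sorted GMP array. Without dox it was 7.91, 8.16 and 6.76 in LT-HSC-derived lines at 48 h, 9.57, 9.10 and 8.23 at 72 h, and 9.16, 9.87 and 8.52 in GMP-derived lines. The low value at 48 h, 6.76, was line B6-1, and the lowest GMP-derived value, 8.52, was line F6-6.

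Within a line, dox minus no dox for Fn1 was -2.26 and -1.79 in B6-2 and B6-3 of LT-HSC origin at 48 h, -3.34, -2.50 and -2.84 in B6-2, B6-3 and B6-1 at 72 h, and -2.62, -3.20 and -2.86 in B6-2, B6-3 and F6-6 of GMP origin. The fitted difference was -2.89 ± 0.43 at 72 h (7.41-fold lower, adjusted p = 0.000169) and -2.88 ± 0.40 in GMP-derived lines (7.37-fold lower, adjusted p = 3.32e-05). At 48 h in LT-HSC-derived lines it was -1.60 ± 0.48 and not called (adjusted p = 0.221), although the arrays of the groups did not overlap. Line B6-1, which had no dox array at 48 h, entered that value on the side without dox. With the line as a replicate block, which compares arrays of the same line, the difference was -1.98 and was called (adjusted p = 0.00015).

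Tgfbi, named for its induction by TGF-beta, fell with dox in all 3 comparisons. Its signal (probe set 10405587) with dox was 7.15 and 7.06 in LT-HSC-derived lines at 48 h, 7.40, 7.21 and 7.17 at 72 h, and 6.80, 7.47, 6.34 and 7.17 in GMP-derived lines. Without dox it was 8.75, 8.96 and 8.56 at 48 h, 10.07, 10.01 and 9.64 at 72 h, and 9.33, 9.82 and 8.40 in GMP-derived lines. The lowest value without dox, 8.40 in line F6-6, was above the highest value with dox, 7.47 in line B6-3 of GMP origin. The difference was -1.65 ± 0.30 at 48 h (3.14-fold lower, adjusted p = 0.01), -2.65 ± 0.27 at 72 h (6.26-fold lower, adjusted p = 1.53e-06) and -2.23 ± 0.25 in GMP-derived lines (4.71-fold lower, adjusted p = 2.65e-06). Within lines it ranged from -2.79 to -1.60 over the 8 pairs. In sorted cells Tgfbi was 7.18, 7.50, 6.81 and 6.995 in LT-HSC and 8.01, 8.62, 8.04 and 8.28 in GMP, again without overlap.

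Versican spanned the widest range, with group means 5.41 apart between the lowest group, sorted LT-HSC, and the highest, LT-HSC-derived lines at 72 h without dox. Its signal (probe set 10410931) was 4.99, 4.99, 4.58 and 5.19 in sorted LT-HSC and 5.16, 5.70, 4.79 and 5.59 in sorted GMP, all below the median of all values. No test of these signals against background was made, so the size of its differences from sorted cells is uncertain. With dox Vcan was 6.57 and 7.19 in LT-HSC-derived lines at 48 h, 7.51, 6.73 and 6.20 at 72 h, and 6.74, 7.63, 5.04 and 7.15 in GMP-derived lines. The value of 5.04 came from line F6-6 and lay within the range of sorted GMP. Without dox Vcan was 9.53, 9.69 and 8.58 in LT-HSC-derived lines at 48 h, 10.56, 10.75 and 9.74 at 72 h, and 10.22, 10.88 and 9.43 in GMP-derived lines, and no array without dox overlapped one with it.

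With dox minus without, Vcan differed by -2.38 ± 0.54 at 48 h (5.22-fold lower, adjusted p = 0.0456), by -3.54 ± 0.48 at 72 h (11.6-fold lower, adjusted p = 5.9e-05) and by -3.54 ± 0.45 in GMP-derived lines (11.6-fold lower, adjusted p = 1.06e-05). Within lines, 7 of the 8 pairs lay between -4.02 and -2.50. The difference in line F6-6, -4.39, rests on the value of 5.04, which lay below the median of all values and was not tested against background. Galectin 3 moved the same way with smaller steps. With dox its signal (probe set 10414360) was 7.29 and 7.60 in LT-HSC-derived lines at 48 h, 7.78, 7.75 and 7.90 at 72 h, and 7.60, 7.91, 7.03 and 7.77 in GMP-derived lines. Without dox Lgals3 was 8.37, 8.54 and 8.45 at 48 h, 9.13, 9.10 and 8.69 at 72 h, and 8.87, 9.15 and 8.45 in GMP-derived lines, above every array with dox.

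Lgals3 differed by -1.01 ± 0.21 at 48 h (2.01-fold lower, adjusted p = 0.0278), by -1.16 ± 0.19 at 72 h (2.24-fold lower, adjusted p = 0.000366) and by -1.24 ± 0.18 in GMP-derived lines (2.37-fold lower, adjusted p = 3.97e-05). In sorted cells it was 6.77, 6.96, 6.82 and 6.86 in LT-HSC and 7.13, 7.68, 7.05 and 7.05 in GMP. The groups did not overlap, yet the difference of 0.38 ± 0.16 was not called (adjusted p = 0.0881). It was called with only the 8 sorted arrays in the fit (adjusted p = 0.0396).

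The calls at 48 h in LT-HSC-derived lines, with 2 arrays against 3, rested on single arrays. Without the dox array of B6-2 or of B6-3, which leaves 1 array assumed to vary like the other groups, and without the array of B6-3 lacking dox, none of the 7 genes was called. Without the B6-2 array lacking dox, Vcan was not called (adjusted p = 0.122), and without the B6-1 array lacking dox, Lgals3 was not (adjusted p = 0.0909). The Vcan call was also lost with only the groups compared in the fit (adjusted p = 0.0619) and with a trended robust prior (adjusted p = 0.13). At 72 h and in GMP-derived lines, leaving out any array of the groups compared left 4 and 5 genes called.

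**Figure D2:**
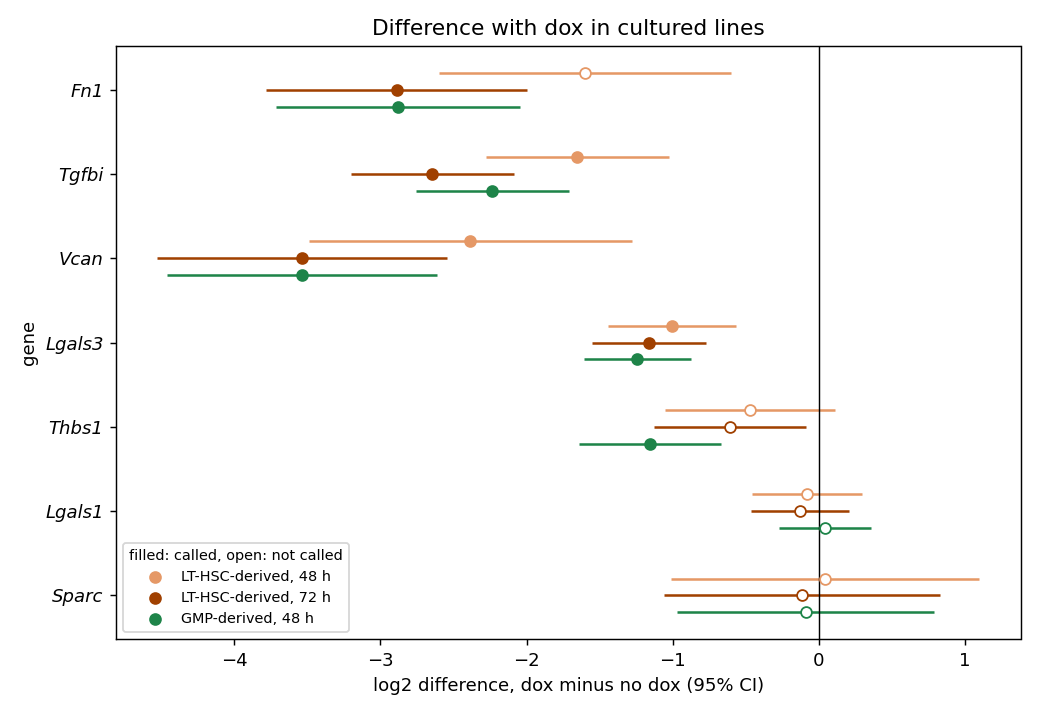
Difference with dox minus without it for each gene (log2, horizontal axis) with its 95% confidence interval, in LT-HSC-derived lines at 48 h and 72 h and GMP-derived lines at 48 h; filled points were called at an adjusted p under 0.05. Fn1, Tgfbi, Vcan and Lgals3 lie left of 0 in all 3 comparisons, Thbs1 was called in GMP-derived lines and not in the others, and the intervals of Lgals1 and Sparc include 0.

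Thrombospondin 1, a matricellular protein that can activate latent TGF-beta, set the cultured lines apart from the sorted cells. Its signal (probe set 10474700) was 6.49, 6.46, 6.40 and 6.51 in sorted LT-HSC and 6.64, 7.28, 6.51 and 6.27 in sorted GMP, which overlapped. In LT-HSC-derived lines it was 9.49 and 9.78 with dox at 48 h, 9.74, 9.68 and 9.90 with dox at 72 h, 9.93, 10.24 and 10.15 without dox at 48 h, and 10.54, 10.44 and 10.17 without dox at 72 h. GMP-derived lines had 8.51, 8.84, 9.81 and 9.69 with dox and 10.08, 10.42 and 10.60 without. The lowest cultured array, 8.51 in line B6-2 of GMP origin with dox, was above the highest sorted array, 7.28.

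Thbs1 fell with dox in GMP-derived lines, with a difference of -1.15 ± 0.23 (2.23-fold lower, adjusted p = 0.00155). In LT-HSC-derived lines the difference was -0.47 ± 0.28 at 48 h (adjusted p = 0.831) and -0.61 ± 0.25 at 72 h (adjusted p = 0.159), neither called. At 72 h it was called when arrays were paired by line in a replicate block (adjusted p = 0.0332) and with only the groups compared in the fit (adjusted p = 0.0275). The within-line differences were -1.57 and -1.59 for B6-2 and B6-3 of GMP origin, -0.78 for F6-6, and between -0.80 and -0.27 for the 5 pairs of LT-HSC origin. The difference of the dox effect between origins at 48 h was 0.68 ± 0.37 (95% interval -0.07 to 1.44, adjusted p = 0.646).

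**Figure D3:**
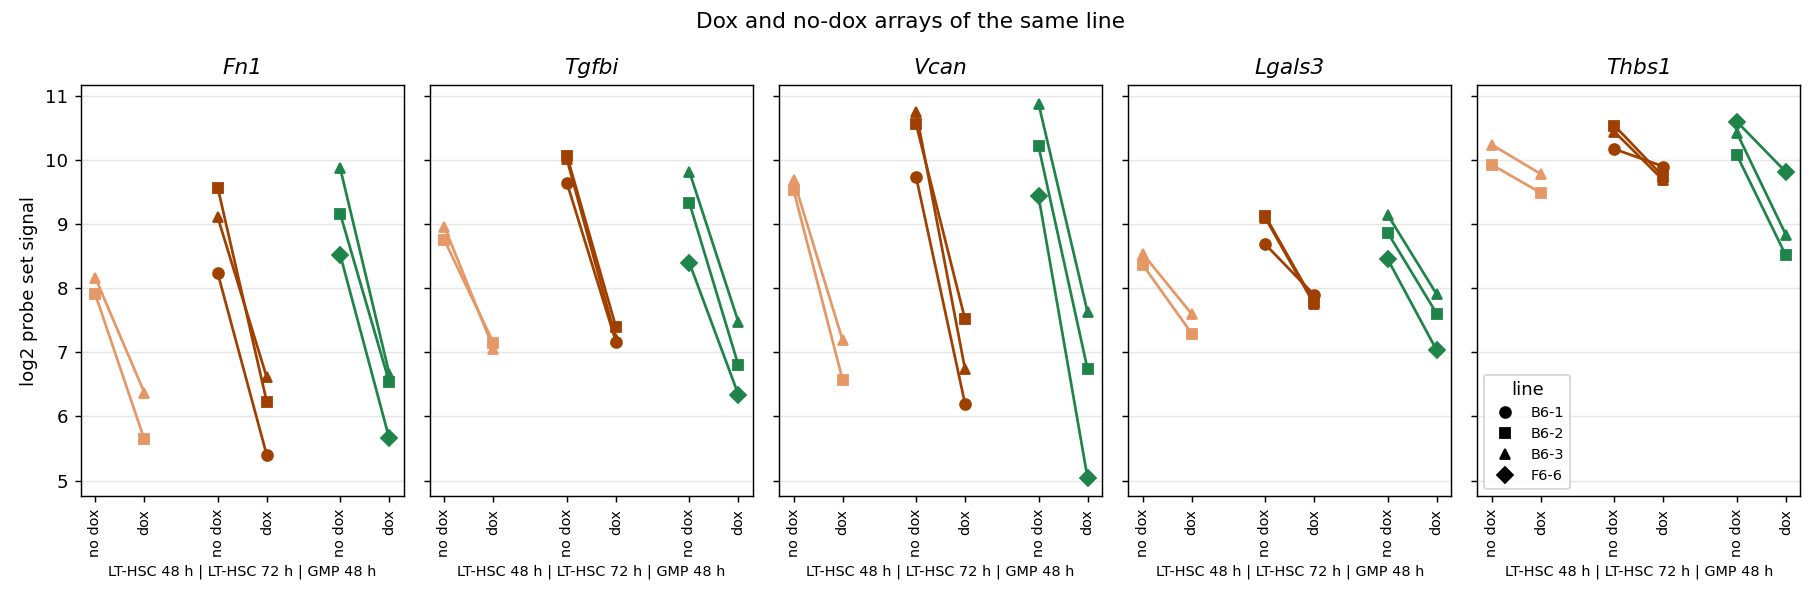
Log2 probe set signal (vertical axis) of 5 genes on the arrays of the same line without and with dox, joined by a line, for LT-HSC-derived lines at 48 h and 72 h and GMP-derived lines at 48 h; marker shapes give the line. All 8 pairs fall in each of the 5 genes, from -4.39 in the steepest Vcan pair to -0.27 in the flattest Thbs1 pair.

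Galectin 1 separated sorted LT-HSC from every other group. Its signal (probe set 10425161) was 8.02, 9.002, 8.60 and 8.07 in sorted LT-HSC and 11.62, 11.66, 11.69 and 11.65 in sorted GMP. The 18 cultured arrays lay between 11.30 and 11.86, and both lower ends, 11.30 without dox and 11.38 with it, were line F6-6. With dox minus without, Lgals1 differed by -0.08 ± 0.18 at 48 h (95% interval -0.46 to 0.30), by -0.13 ± 0.16 at 72 h (-0.47 to 0.21) and by 0.04 ± 0.15 in GMP-derived lines (-0.27 to 0.36), none called. Lgals1 was lower with dox in 6 of 8 pairs. The highest signal on any array was 13.1, and whether the Lgals1 probe set was near saturation was not analysed.

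Sparc, a collagen-binding glycoprotein, was the member with the widest spread among sorted replicates. Its signal (probe set 10386058) was 8.68, 6.33, 7.86 and 8.13 in sorted LT-HSC and 7.36, 7.61, 8.41 and 5.69 in sorted GMP, with SDs of 1.01 and 1.14, and the groups overlapped. The 18 cultured arrays lay between 5.45 and 5.96, at or about the median of all values, and they were not tested against background. The dox difference was 0.04 ± 0.51 at 48 h (95% interval -1.01 to 1.10), -0.11 ± 0.46 at 72 h (-1.06 to 0.83) and -0.09 ± 0.43 in GMP-derived lines (-0.97 to 0.79), none called, and 6 of 8 pairs were lower with dox. Between sorted cells Sparc differed by -0.48 ± 0.39 (GMP minus LT-HSC, adjusted p = 0.426), and without replicate 2 of sorted LT-HSC, the array at 6.33, by -0.96, which was called (adjusted p = 0.0387).

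Among sorted cells, 3 of the 7 genes rose from LT-HSC to GMP: Lgals1 by 3.23 ± 0.14 (9.40-fold, adjusted p = 4.79e-15), Fn1 by 2.16 ± 0.37 (4.48-fold, adjusted p = 5e-05) and Tgfbi by 1.12 ± 0.23 (2.17-fold, adjusted p = 0.000472). None fell. Over all genes, 32.1% were called in this comparison and 16.8% were higher in GMP, the background against which the 3 of 7 stand. Vcan differed by 0.37 ± 0.41 and Thbs1 by 0.21 ± 0.22 (adjusted p = 0.59 and adjusted p = 0.552).

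The lines were then set against the sorted cells of their origin, which asks how these genes differ between the lines and normal progenitors. Culture, immortalization and the fusion cannot be told apart in this comparison, and lines with and without dox share the same sorted arrays. In LT-HSC-derived lines at 48 h with dox, Lgals1 (3.21 ± 0.17), Thbs1 (3.17 ± 0.27), Vcan (1.94 ± 0.51) and Lgals3 (0.59 ± 0.20) were higher than in sorted LT-HSC and Sparc was lower (-2.07 ± 0.48). The adjusted p was 4.36e-13 for Lgals1, 1.28e-09 for Thbs1, 0.00444 for Vcan, 0.0276 for Lgals3 and 0.00168 for Sparc. Over all genes 29.2% were called. Tgfbi (-0.02 ± 0.29) and Fn1 (-0.61 ± 0.46) were not called and overlapped sorted LT-HSC. Without the dox array of B6-3, Vcan (adjusted p = 0.0832) and Lgals3 (adjusted p = 0.273) were no longer called and 3 genes remained, and without replicate 1 of sorted LT-HSC, Lgals3 was not called (adjusted p = 0.0546). In the same comparison 9 of 13 monocyte and macrophage markers and 8 of 13 late neutrophil markers were higher in the lines, and 0 and 1 were lower.

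Without dox, 5 of the 7 genes were higher than in sorted LT-HSC and Sparc was lower, against 35.2% of all genes called. The increases were 4.33 ± 0.45 for Vcan (20.1-fold), 3.64 ± 0.23 for Thbs1 (12.5-fold), 3.29 ± 0.15 for Lgals1 (9.80-fold), 1.64 ± 0.25 for Tgfbi (3.11-fold) and 1.60 ± 0.18 for Lgals3 (3.03-fold), with Sparc at -2.11 ± 0.43 (adjusted p = 0.000301). Fn1 was 0.99 ± 0.40 and not called (adjusted p = 0.0595). Its call depended on the setting: without the B6-1 array it was 1.42 and called (adjusted p = 0.012), as it was with a filter on dim genes (adjusted p = 0.0464), with array weights (adjusted p = 0.0448) and with only the groups compared in the fit (adjusted p = 0.0235). Of the monocyte markers 12 of 13 were higher than in sorted LT-HSC, and of the late neutrophil markers 10 of 13 were higher and 1 lower.

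**Figure D4:**
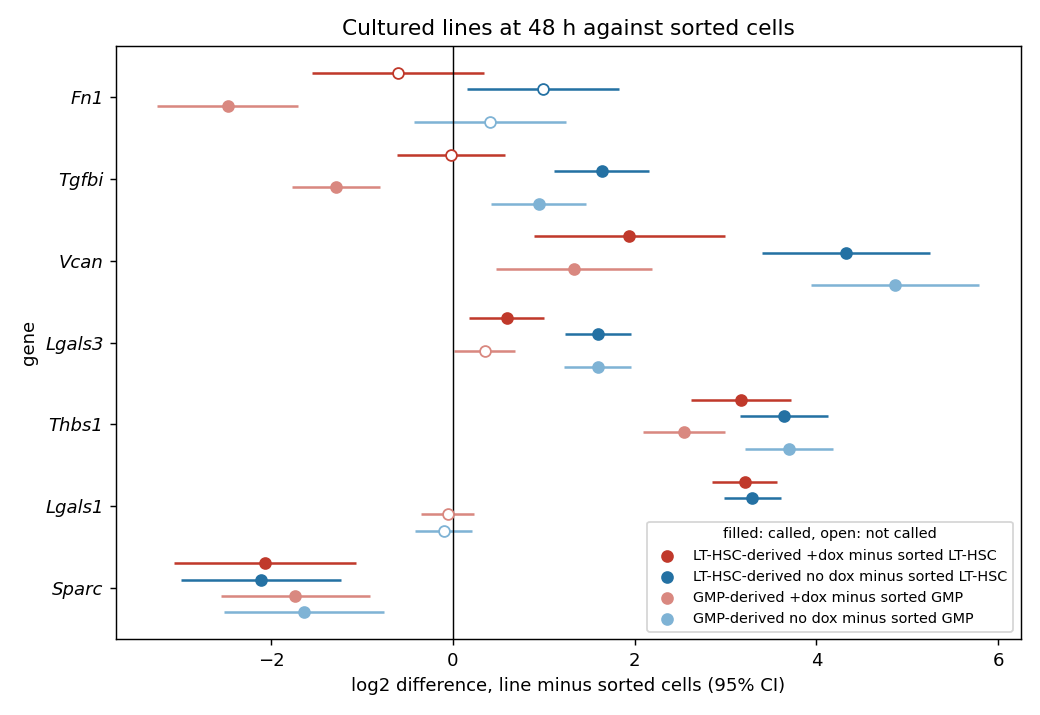
Difference of cultured lines at 48 h minus sorted cells of the same origin (log2, horizontal axis) with 95% confidence intervals; filled points were called at an adjusted p under 0.05. Thbs1 and Vcan lie right of 0 and Sparc left of 0 in all 4 comparisons, Lgals1 is right of 0 against sorted LT-HSC alone, and Fn1 and Tgfbi in GMP-derived lines with dox lie left of 0.

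GMP-derived lines with dox were lower than sorted GMP in Fn1 (-2.48 ± 0.37, 5.57-fold lower, adjusted p = 2.56e-05), Sparc (-1.73 ± 0.39, adjusted p = 0.00226) and Tgfbi (-1.29 ± 0.23, 2.44-fold lower, adjusted p = 0.000228). They were higher in Thbs1 (2.54 ± 0.22, 5.82-fold, adjusted p = 6.46e-09) and Vcan (1.33 ± 0.41, adjusted p = 0.0238), whose arrays overlapped through line F6-6. Lgals3 (0.35 ± 0.16) and Lgals1 (-0.06 ± 0.14) were not called, and over all genes 19.8% were. The Vcan call was lost without replicate 1 or 3 of sorted GMP (adjusted p = 0.0583 and adjusted p = 0.0832), without line B6-2, B6-3 or B6-1 (adjusted p = 0.0536, adjusted p = 0.112 and adjusted p = 0.0826), with only the groups compared (adjusted p = 0.0549) and with a trended robust prior (adjusted p = 0.0517). Lgals3 was called without line F6-6 (adjusted p = 0.0144) and without replicate 2 of sorted GMP (adjusted p = 0.0328). Of 13 monocyte markers 6 were lower than in sorted GMP and none higher, and of 13 late neutrophil markers 4 were higher and 1 lower.

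Without dox, GMP-derived lines were higher than sorted GMP in Vcan (4.87 ± 0.45, 29.2-fold, adjusted p = 1.87e-08), Thbs1 (3.70 ± 0.23, 12.95-fold, adjusted p = 4.85e-11), Lgals3 (1.59 ± 0.18, 3.02-fold, adjusted p = 3.24e-07) and Tgfbi (0.95 ± 0.25, 1.93-fold, adjusted p = 0.00725) and lower in Sparc (-1.64 ± 0.43, adjusted p = 0.00586). Over all genes 23.5% were called. Fn1 differed by 0.41 ± 0.40 (95% interval -0.43 to 1.24) and its arrays overlapped those of sorted GMP. The arrays of Tgfbi and Sparc, which were called, overlapped those of sorted GMP too. Tgfbi was not called without the array of line B6-3 (0.63, adjusted p = 0.1). Late neutrophil markers were higher in 11 of 13, with a list median of 3.37, and of 13 monocyte markers 6 were higher and 2 lower. The part of these markers in the differences from sorted cells was not tested.

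Origin and time were compared within the cultures. With dox, none of the 7 genes was called between LT-HSC-derived and GMP-derived lines, with differences from -0.29 for Fn1 to 0.42 for Thbs1 and no unadjusted p under 0.05 (limma), against 2.11% of all genes called. Without dox, Fn1 was lower in LT-HSC-derived lines, with a difference of -1.57 ± 0.43 (2.97-fold lower, adjusted p = 0.0267), against 6.8% of all genes, and the other 6 were not called. That call was lost without line B6-1 of LT-HSC origin (-1.15, adjusted p = 0.199), without line B6-2 or B6-3 of GMP origin (adjusted p = 0.0646 and adjusted p = 0.167), with only the groups compared (adjusted p = 0.0953) and with a trended robust prior (adjusted p = 0.0582). Of 9 mast cell and basophil markers, 7 were higher in LT-HSC-derived lines without dox and none lower. Their mean level was 7.28 to 8.59 there and 5.48 to 6.80 in GMP-derived lines without dox. The highest, 8.59, was line B6-1, which also had the lowest Fn1 of that group. The same array had the lowest late neutrophil and monocyte levels of its group, 8.34 and 8.09. Late neutrophil markers lay at 8.34 to 8.99 in that group and at 9.40 to 9.61 in GMP-derived lines without dox. Monocyte markers lay at 8.09 to 8.34 and at 7.86 to 8.96 in the same order. The part of these 3 lists in the Fn1 difference was not tested. The dox effect itself differed between origins by 1.28 ± 0.63 for Fn1 (95% interval -0.02 to 2.58, adjusted p = 0.585) and by 1.15 ± 0.70 for Vcan (-0.29 to 2.59, adjusted p = 0.71). None of the 7 was called in that test, none had an unadjusted p under 0.05, and 0.231% of all genes were called.

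From 48 h to 72 h without dox, all 7 genes had differences above 0, from 0.10 for Lgals1 to 1.36 ± 0.43 for Fn1, but none was called (limma, 4 at an unadjusted p under 0.05), against 0.181% of all genes. With the line as a replicate block, 4 were called: Fn1 by 1.36 (adjusted p = 0.00337), Tgfbi by 1.15 (adjusted p = 8.67e-05), Vcan by 1.09 (adjusted p = 0.0161) and Lgals3 by 0.52 (adjusted p = 0.0401). Array weights gave calls for Fn1 (1.62, adjusted p = 0.0445) and Tgfbi (1.22, adjusted p = 0.0159). With dox, the differences from 48 h to 72 h lay between -0.07 and 0.36, none was called or had an unadjusted p under 0.05, and no gene on the array was called. The test of whether the dox effect differed between the hours called no gene on the array either. It gave -1.29 ± 0.65 for Fn1 (95% interval -2.63 to 0.05, adjusted p = 0.858), -0.99 ± 0.41 for Tgfbi (-1.83 to -0.15, adjusted p = 0.838, the 1 member with an unadjusted p under 0.05) and -1.15 ± 0.72 for Vcan (-2.64 to 0.33, adjusted p = 0.867).

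When each gene's 8 group means were put in order, 2 or 3 of the 7 steps between neighbours exceeded the larger SD. For Fn1, the groups with dox came lowest, then sorted LT-HSC, LT-HSC-derived lines at 48 h without dox, sorted GMP, and the remaining groups without dox, and 2 of the 7 steps between neighbours exceeded the larger SD. Vcan ran from sorted LT-HSC and sorted GMP through the dox cultures to the cultures without dox, with 3 of 7 steps over the larger SD and 1 without overlapping arrays, the step of 2.38 between LT-HSC-derived lines with and without dox at 48 h. For Thbs1 the step of 2.54 from sorted GMP to GMP-derived lines with dox had no overlap, and for Lgals1 the step of 3.13 from sorted LT-HSC to GMP-derived lines without dox had none. Sparc had no step without overlap, and the means of the 6 cultured groups ran from 5.54 to 5.80, with at most 0.11 between neighbours.

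Genes of the wider families were also compared with and without dox, where 0.441%, 7.15% and 10.9% of all genes were called in the 3 comparisons. The other galectins and galectin ligands (9 measured) held no called gene at 48 h in LT-HSC-derived lines, 1 rise (Lgals9, 0.39 ± 0.10) and 1 fall (Lgals8, -0.57 ± 0.11) at 72 h, and 1 fall in GMP-derived lines (Lgals8, -0.64 ± 0.11). No close relative of the matricellular genes (21 measured) and no collagen, laminin or other basement membrane gene (22 measured) was called in any of the 3 dox comparisons. Of 22 other matrix proteins and proteoglycans, none was called at 48 h, Emilin2 (-0.56 ± 0.15) and the hyaluronan synthase Has2 (-0.31 ± 0.08) fell at 72 h, and Emilin2 (-0.66 ± 0.14) fell in GMP-derived lines. The median differences of these 4 lists lay between -0.12 and 0.08 in the 3 comparisons.

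Of 28 genes for enzymes that modify or cleave matrix and for their inhibitors, receptors and chaperones, 2 were lower in LT-HSC-derived lines at 48 h, 8 at 72 h and 7 in GMP-derived lines and none was higher. Over all genes 0.286%, 3.72% and 5.18% were lower. The list medians were -0.21, -0.31 and -0.21, and the difference from other lists was not tested. Mmp12, the macrophage metalloelastase, differed by -2.81 ± 0.55, -3.47 ± 0.49 and -2.45 ± 0.46 in the 3 comparisons. The lysyl hydroxylase Plod2 differed by -1.96 ± 0.33 and -1.64 ± 0.29 in LT-HSC-derived lines at 48 h and 72 h. Plaur, the urokinase receptor, differed by -1.51 ± 0.24 at 72 h and by -1.53 ± 0.22 in GMP-derived lines. There Mmp8, a neutrophil collagenase, differed by -1.99 ± 0.45 and F13a1, the transglutaminase subunit of factor XIII, by -1.41 ± 0.30. Mmp8 and F13a1 are also on the neutrophil and monocyte marker lists.

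Receptors of these proteins (25 measured) included no called gene in LT-HSC-derived lines at 48 h, 5 falls at 72 h and 4 in GMP-derived lines, against 3.72% and 5.18% of all genes lower in the last 2 comparisons. Lrp1, an endocytic receptor that clears thrombospondin, differed by -1.40 ± 0.25 at 72 h and by -1.07 ± 0.24 in GMP-derived lines. Tlr2, a pattern recognition receptor that versican can engage, differed by -0.96 ± 0.20 and -0.87 ± 0.19 in the same comparisons, and Ptprc (CD45), a galectin 1 counter-receptor, by -0.38 ± 0.08 and -0.33 ± 0.08. In the TGF-beta pathway (22 measured), no gene was called in LT-HSC-derived lines at either hour. In GMP-derived lines, the corepressor gene Tgif1 (0.43 ± 0.09) and the pseudoreceptor gene Bambi (0.36 ± 0.09) rose and the ubiquitin ligase gene Smurf1 (-0.30 ± 0.09) and the corepressor gene Ski (-0.27 ± 0.06) fell, 4 of 22 against 10.9% of all genes called in either direction.

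Between sorted cells 32.1% of all genes were called in either direction. Of the 19937 genes, 3043 were lower and 3359 (16.8%) higher in GMP, and the counts of these lists are to be read against those. From LT-HSC to GMP, 11 of 22 TGF-beta pathway genes fell and 3 rose, led by Skil (-2.54 ± 0.13) and Tgfbr3 (-2.01 ± 0.15). Of 25 receptors, 9 fell and 4 rose, with the hyaluronan receptor Cd44 higher by 1.19 ± 0.13, Selplg (P-selectin ligand) by 1.44 ± 0.09 and the syndecan Sdc2 at -2.37 ± 0.31. Of the 28 genes of the enzyme list, 8 fell and 6 rose, with F13a1 higher by 5.24 ± 0.27 and the metalloproteinase inhibitor Timp3 at -2.51 ± 0.16. Of 9 other galectins and ligands, 5 fell, the largest being Lgals3bp at -0.98 ± 0.13, and none rose.

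Some monocyte and late neutrophil markers were also called lower with dox, while the members Lgals1 and Sparc were not called. Over all genes 0.286% and 3.72% were lower in LT-HSC-derived lines at 48 h and 72 h, and 5.18% in GMP-derived lines. Of 13 monocyte and macrophage markers, 1 was lower with dox in LT-HSC-derived lines at 48 h (the mannose receptor Mrc1), 8 at 72 h and 9 in GMP-derived lines, and none was higher. Their mean level was 7.30 to 7.40 with dox and 8.09 to 8.34 without at 48 h, 7.45 to 7.68 and 8.42 to 8.98 at 72 h, and 6.67 to 7.92 and 7.86 to 8.96 in GMP-derived lines. Line F6-6 had the lowest monocyte level of the GMP-derived lines on both sides, 6.67 with dox and 7.86 without, as it had the lowest Fn1, Tgfbi, Lgals3 and Vcan. The same line had the highest late neutrophil level of these lines, 7.32 with dox and 9.61 without, and the highest Thbs1, 9.81 and 10.60. Of 13 late neutrophil markers, 1, 5 and 10 were lower with dox, and their mean level was 7.85 to 7.998 and 8.34 to 8.99, 7.95 to 8.35 and 8.59 to 9.90, and 7.14 to 7.32 and 9.40 to 9.61 in the same order. In sorted cells 10 of the 13 monocyte markers were higher in GMP, against 16.8% of all genes. Their mean levels were 5.43 to 5.77 in LT-HSC and 8.02 to 8.18 in GMP, and the late neutrophil markers lay at 5.83 to 6.81 and 6.20 to 7.43. The part of these markers in the differences of Fn1, Tgfbi, Vcan, Lgals3, Thbs1 and Lgals1 was not tested.

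Stromal markers, of cells that make matrix in marrow, had a low mean level on all arrays. The mean level of the 11 lay between 4.92 and 5.21 on all 26 arrays, below the median of all values. By group, 7 to 9 of the 11 had a mean below that median. None was called with dox in LT-HSC-derived lines, and 2 were lower in GMP-derived lines, against 5.18% of all genes. Endothelial markers (9 measured) had mean levels of 6.05 to 6.10 in sorted LT-HSC and 5.25 to 5.58 elsewhere. Megakaryocyte and platelet markers (8 measured) are of cells that store thrombospondin 1 and SPARC. Their mean levels were 7.14 to 7.47 in sorted LT-HSC and 5.69 to 6.08 in sorted GMP. Of the 8, 7 were lower in GMP, against 3043 of all 19937 genes. In cultured lines the mean levels of these markers lay between 5.66 and 6.85, the highest being line B6-1 of LT-HSC origin at 72 h without dox. Their part in the Sparc and Thbs1 values was not tested.

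Across the 26 arrays the genes did not all follow the same course. Vcan and Lgals3 correlated with r = 0.97, Fn1 and Tgfbi with r = 0.86, and Thbs1 and Sparc with r = -0.79, while Fn1 and Thbs1 had r = 0.08 and Fn1 and Sparc r = 0.03. These are descriptions over arrays that fall into 8 groups and share lines. The genes most like Vcan were the chemokine receptor gene Ccr1 (r = 0.97), the lectin gene Clec4n (r = 0.97) and Lgals3, and Ccr1 and Clec4n were also most like Lgals3 (r = 0.97 for both). Tgfbi was most like Ahnak (r = 0.96), Tlr8 (r = 0.95) and Clec4a1 (r = 0.93), and Fn1 most like Slfn1 (r = 0.91), Slc31a2 (r = 0.91) and Ifi207 (r = 0.90). Lgals1 was most like the leukocyte genes Cd53, Tyrobp and Cd48 (r = 0.99 each). Thbs1 was most like Dmxl2 (r = 0.97), Scd2 (r = 0.97) and Lss (r = 0.96), the last 2 being genes of lipid and sterol synthesis, and Sparc most like Rela (r = 0.91), Zfp655 (r = 0.88) and Ubtd2 (r = 0.88).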

How the data were processed

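RNA of 26 samples was amplified to cDNA, labelled and hybridised to Affymetrix arrays, per the labels' protocols. The authors deposited log2 signals of 34760 probe sets, and limma and R 3.1.1 are named in the submitters' processing notes. How background was corrected and probes were summarised and normalized is stated in none of the sources used. That the scale is log2 follows from the range, 1.75 to 13.1. No filter was applied, and precision is limited by how many arrays there are.

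Of the probe sets, 21640 had 1 gene symbol, 1321 several and 11799 none. Each of 19937 genes was represented by its probe set with the highest mean, and symbols were updated through the RefSeq table of GRCm38.p6. The array's own build is not named, so gene coordinates are given for promoter windows only. Group means over all 26 arrays were fitted with limma 3.58.1 in R 4.3.3 (lmFit, eBayes), with Benjamini-Hochberg adjustment over all genes, for 12 comparisons of groups and 2 of dox effects, after a test on simulated data. The genes, the lists and the tests were chosen with earlier results of these data known. Named were all members, up to 4 called genes per list and comparison, the 3 genes most correlated with each member over the arrays (predicted genes, microRNAs and receptor families left out), and Kmt2a, Mllt3, Hoxa9 and Meis1.

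Within an origin, same-numbered cultured arrays carry the same line name in the labels, so the numbers pair them in comparisons of dox and of hours. Deviations from the group means of same-line arrays correlated with r from -0.06 to 0.40. Those of different lines in the same comparisons correlated with r from -0.41 to 0.26. Sorted arrays share only a number. Alternatives were quantile normalization, median centring, a filter on dim genes, the mean of probe sets, only the groups compared, array weights, a trended robust prior, the line as a block, and leaving out each array; the line as a random block was added after seeing the data. Protein sequences were not used here.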

Additional observations from a re-analysis of the deposited data

Results flagged for a closer look

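Lgals3 on sorted GMP replicate 2 was 7.68, apart from the other 3 sorted GMP arrays, which lay between 7.05 and 7.13. Its gap to the nearest of them was 0.869 of the group's range, above the 95% critical value of 0.829 for 4 samples. Of 21 such checks over the 7 genes and the groups of 4 arrays this was 1 beyond its critical value, and chance gives about 1 in 20. The same array had the highest Fn1 (9.80), Tgfbi (8.62), Thbs1 (7.28) and Vcan (5.70) of sorted GMP and the highest mean level of late neutrophil markers, 7.43 against 6.20 to 6.43 on the others. Their part in the value was not tested.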

How the results depend on the processing

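Of 220 recomputed counts of called genes, 209 stayed within 1.5 times the reported count, and none of the 37 called differences reversed. Counts of 0 that stayed 0 are among the 209, and 3 becoming 2 was scored as within that limit. Of 1221 recomputed differences of single genes, 29 lost their call and 18 gained one. In LT-HSC-derived lines at 48 h, the count of 3 became 0 to 2 when arrays were left out in turn. In LT-HSC-derived lines with dox against sorted LT-HSC, the count of 5 became 3 to 5. Between origins without dox, the count of 1 became 0 with only the groups compared, 0 with a trended robust prior, and 0 to 1 when arrays were left out. From 48 h to 72 h without dox, the count of 0 became 2 with array weights and 4 with the line as a replicate block. The block, which pairs arrays of the same line, also added calls for Fn1 (48 h) and Thbs1 (72 h) in LT-HSC-derived lines. Among sorted cells, which share only numbers, it gave a call for Lgals3 (adjusted p = 0.00739). Same-numbered deviations there correlated with r of 0.02 to 0.06, and differently numbered ones with r of -0.07 to 0.08. The block changed no other member's call, and could not be fitted for the levels of one origin against the other or of lines against sorted cells. The line as a random block, added after seeing the data, changed no member's call (consensus correlation 0.052). The causes were not tested.

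Among the differences checked singly, values that were not called changed sign as follows. The origins compared with dox and 72 h against 48 h with dox were not checked in this way. Nor were Thbs1, Lgals1 and Sparc in the tests of dox effects between origins and between hours. With median centring, Tgfbi became 0.0077 in LT-HSC-derived lines with dox against sorted LT-HSC and Sparc became -0.0133 between origins without dox, which quantile normalization gave as -0.0134. When arrays were left out, Sparc ranged from -0.957 to 0.044 between sorted cells, from -0.0942 to 0.183 for dox at 48 h and from -0.186 to 0.0018 at 72 h in LT-HSC-derived lines, and from -0.054 to 0.081 between origins without dox. Lgals1 ranged from -0.083 to 0.126 for dox in GMP-derived lines, and from -0.0981 to 0.018 and from -0.181 to 0.027 in these lines with and without dox against sorted GMP. Tgfbi ranged from -0.120 to 0.108 in LT-HSC-derived lines with dox against sorted LT-HSC.

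Counts over all genes moved by more than 1.5 times in some settings. For dox at 48 h in LT-HSC-derived lines 88 became 295 with the replicate block, 145 with array weights, 54 with only the groups compared, and 10 to 48 without a dox array or the B6-3 or B6-1 array lacking dox. At 72 h 1425 became 2241 with array weights, 647 with only the groups compared and 859 to 903 without some arrays, and in GMP-derived lines 2179 became 1224 without line B6-3 lacking dox. Between origins 1355 without dox became 595 with only the groups compared and 743 to 880 without some arrays, and 421 with dox became 110 and 237 without a dox array. From 48 h to 72 h without dox, 36 became 335 with array weights, 230 with the block, 0 with only the groups compared, 21 with median centring (17 higher and 4 lower, against 24 and 12), and 0 to 57 without some arrays; with dox, 0 became 2 with the block. The test between origins went from 46 to 98 with the block and 87 with array weights. It became 21 with only the groups compared and 8 to 29 without some arrays. The test between hours went from 0 to 2 with the block and 1 with only the groups compared. It became 1 without the 72 h array lacking dox of line B6-2, and 2 without that of B6-1. Signals near the array medians (Vcan in sorted cells, Sparc in lines) limit the sizes given there.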
